A study of Mus musculus with 2 samples.

Results

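The genes described here encode surface proteins of the Ly6 family, and the members were *Ly6a*, *Ly6c1*, *Ly6e*, *Ly6g6c*, *Ly6g6e* and *Ly6k*. They were chosen because *Ly6g6e* was among the genes lowered on these arrays, and the others were set beside it as relatives. All 6 genes were measured, by 7 of the 55681 probes, and all 6 were among the 24022 genes that were tested. The choice used the same comparison that is described here, so the values of the members are given as a description and without a test.

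Ly6 proteins are small cysteine-rich proteins whose disulphide bonds hold a compact fold of finger-like loops. Most of them are fixed to the outer face of the cell membrane by a glycosylphosphatidylinositol (GPI) lipid, and some are secreted. They are best known as surface markers of blood cells, endothelium and other stem or progenitor cells, and several of them are known to respond to interferon.

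Gene expression was measured in mouse embryonic stem cells (mESCs) of the genotype AIMP3f/f;cre-ERT2. These cells carry loxP-flanked alleles of *AIMP3*, also called *Eef1e1*, and a Cre recombinase that 4-hydroxytamoxifen (4-OHT, tamoxifen in the labels) activates. *AIMP3* encodes a protein of the complex that holds several aminoacyl-tRNA synthetases. AIMP3-depleted cells received 2 μM tamoxifen for 4 days in 2 replicates, control cells of the same genotype received ethanol, and all cells were kept in medium with LIF. The controls therefore lacked both the drug and active Cre, and effects of these cannot be told apart from loss of AIMP3. The labels do not say whether the replicates were separate cultures. The p-values rest on the spread between these 2 samples, which limma moderates with the spread over all genes.

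Each depleted replicate, in Cy5, shared an Agilent array with 1 pool of the RNA of 2 control replicates, in Cy3. The spread between control replicates is therefore not in the ratio. The dyes were not swapped, so depletion and a dye bias of a gene cannot be told apart. Between 59.3% and 60.6% of the spots were well above background in a channel, and precision is limited by having 2 arrays. The values are log2 ratios of AIMP3-depleted over control after background correction and loess normalization, and a gene counted as changed when it passed 1.5-fold (0.58 on the log2 scale) with an unadjusted p under 0.05 by limma. *Eef1e1* itself had log2 ratios of -0.90 and -0.90 on the arrays, so its transcript stood at 53.6% of the control. All 10 markers of mESCs that were examined, such as *Pou5f1*, *Nanog* and *Sox2*, were detected in each channel.

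RefSeq promoter sequences on GRCm38.p6 were given for 2 of the 6 members, *Ly6c1* and *Ly6g6c*, and none for *Ly6a*, *Ly6e*, *Ly6g6e* and *Ly6k*. They are shown because *Ly6c1* was higher in AIMP3-depleted cells and *Ly6g6c* stayed under the fold threshold. Each sequence holds the 250 bases before the start of the gene that lies farthest upstream in the table, 5′ to 3′ on the strand of the gene. Capitals mark the letters TATAAA, the motif of a TATA box, and whether either match acts as one was not tested. That of *Ly6c1* is on the minus strand at chr15:75048838-75049087, and that of *Ly6g6c* on the plus strand at chr17:35067075-35067324.
Ly6c1: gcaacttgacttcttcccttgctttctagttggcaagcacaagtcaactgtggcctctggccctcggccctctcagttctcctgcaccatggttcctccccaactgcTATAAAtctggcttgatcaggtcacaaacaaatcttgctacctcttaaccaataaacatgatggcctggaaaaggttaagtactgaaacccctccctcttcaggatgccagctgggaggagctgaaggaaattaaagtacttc
Ly6g6c: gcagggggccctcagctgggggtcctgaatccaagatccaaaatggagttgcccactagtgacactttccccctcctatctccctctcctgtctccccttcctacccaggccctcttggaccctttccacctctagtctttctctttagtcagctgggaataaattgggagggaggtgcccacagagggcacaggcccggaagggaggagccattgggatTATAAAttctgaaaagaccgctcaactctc
TATAAA began 143 bases before the start in *Ly6c1* and 30 bases before it in *Ly6g6c*, and it was present on either strand in 12.4% of the 32851 windows of this length in the table. Other motifs were also searched on both strands, the interferon-γ activated site (GAS, TTCNNNGAA), the core of the interferon-stimulated response element (ISRE) and the p53 half-site. These letters were in neither window, and in 7.02%, 2.98% and 7.13% of all windows.

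*Ly6g6e* was the member whose ratio lay past 1.5-fold downwards, while *Ly6e*, *Ly6g6c* and *Ly6k* had smaller negative ratios. Its normalized log2 intensity in the control pool was 11.77 on both arrays, and it was 10.56 and 10.45 in the AIMP3-depleted replicates. Both replicates lay below both control values, and the control values differed by 0.00019 between the arrays. Here and below, the control values are the same pool measured on each array. They therefore show no spread between control replicates. The log2 ratios were -1.21 for replicate 1 and -1.31 for replicate 2, with a mean of -1.26 ± 0.076 (SD, n = 2). The transcript thus stood at 41.8% of the control, or was 2.39-fold lower. The gene belongs to a group of small Ly6 genes in the class III region of the major histocompatibility complex.

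*Ly6g6e* was bright enough for this difference to be read above background. Its spot had a median Cy5 intensity of 2012 and 1593 for the depleted replicates, over local backgrounds of 71 and 67. For the control pool the Cy3 intensities were 2777 and 2859.5, over 57 and 60.5. Every channel of both arrays was well above background, and the gene was measured by 1 probe. Among 14290 other named genes detected in each channel, those whose pair of ratios lay nearest to that of *Ly6g6e* over the 2 arrays were *Upp1*, which encodes a uridine phosphorylase, *Cxcl12*, which encodes a chemokine, and *Ndufa4l2*. Their distances in log2 units were 0.032, 0.15 and 0.18. Over 2 arrays of the same comparison, such nearness means only ratios of similar size.

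*Ly6g6c*, the nearest member in the same group, had log2 intensities of 9.15 and 9.25 in the control pool and 8.98 and 8.92 in the depleted replicates. Both depleted values lay below both control values, but the difference was small. The ratios were -0.17 and -0.32, with a mean of -0.25 ± 0.11 (SD, n = 2), or 84.2% of the control.

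**Figure D1:**
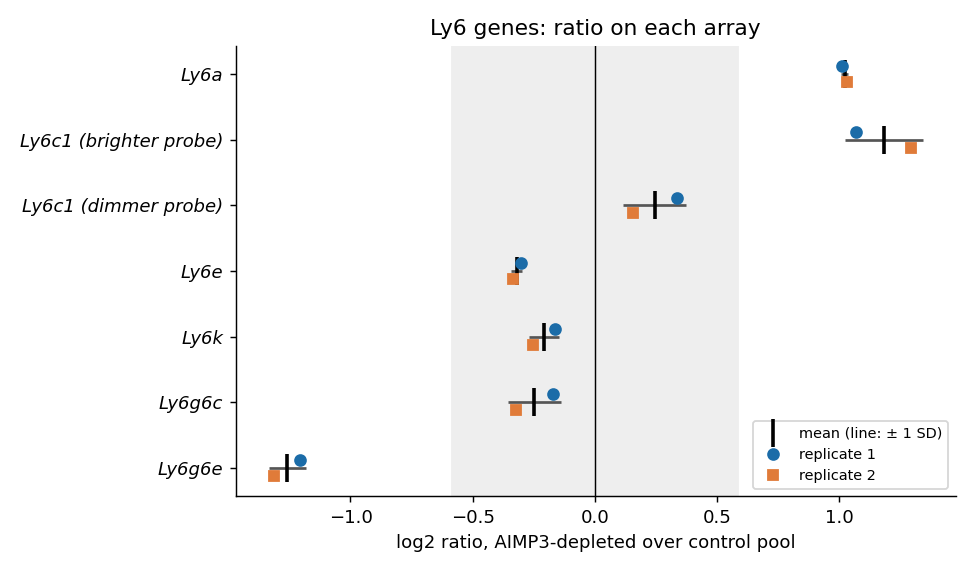
Log2 ratio of AIMP3-depleted over control pool (horizontal axis) for each probe of the 6 Ly6 genes, with circles for replicate 1, squares for replicate 2, vertical ticks for the mean and lines for ± 1 SD over the 2 arrays. The grey band covers ratios under 1.5-fold; *Ly6a*, *Ly6g6e* and the brighter probe of *Ly6c1* lie outside it on both arrays, and the other 4 probes lie inside it.

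*Ly6a* was higher in AIMP3-depleted cells. It encodes Sca-1, the surface antigen used to sort blood stem cells, which is also found on fibroblasts and endothelial cells. Its log2 intensity was 8.52 and 8.43 in the control pool and 9.53 and 9.46 in the depleted replicates. Both depleted values lay above both values of the pool, and the step was nearly the same on each array. The ratios were 1.01 and 1.03, with a mean of 1.02 ± 0.013 (SD, n = 2), so the transcript stood 2.03-fold above the control. In the spots themselves, the Cy5 intensity was 949 and 776 over backgrounds of 60 and 59, and the Cy3 intensity was 287 and 275 over 51 and 49.5.

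*Ly6c1*, which encodes the Ly-6C antigen of monocytes and endothelium, was measured by 2 probes whose ratios differed in size. The brighter probe had log2 intensities of 9.31 and 9.21 in the control pool and 10.38 and 10.50 in the depleted replicates. Its ratios were 1.07 and 1.30, with a mean of 1.18 ± 0.16 (SD, n = 2), or 2.27-fold. Of all member probes, it had the largest difference between the arrays, 0.23 on the log2 scale. The dimmer probe had intensities of 7.11 and 7.28 in the control pool and 7.45 and 7.43 in the depleted replicates, and ratios of 0.34 and 0.15.

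Both *Ly6c1* probes were higher in the depleted cells, but the dimmer probe gave a mean of 0.25 ± 0.13 (SD, n = 2), inside the fold threshold. With both probes averaged, *Ly6c1* had a ratio of 0.71, which still passed 1.5-fold. The dimmer probe had raw intensities of 190 and 168.5 in Cy5 and 100 and 119 in Cy3, over backgrounds of 56 and 56 and of 42.5 and 45. *Ly6c1* has a close relative, *Ly6c2*, for which no probe matched by accession. The probe sequences were not used here, so how much of the signal either probe takes from relatives was not tested.

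*Ly6e* and *Ly6k* were slightly lower in the depleted cells. *Ly6e*, whose product is the receptor of the placental fusion protein syncytin-A in mice, had log2 intensities of 13.02 and 13.00 in the control pool and 12.72 and 12.67 in the depleted replicates. Both depleted values lay below both values of the pool, and the arrays gave close values in each channel. The ratios were -0.30 and -0.34, with a mean of -0.32 ± 0.023 (SD, n = 2), or 80.1% of the control. Its spots were bright, with a Cy5 intensity of 8985.5 and 7527 and a Cy3 intensity of 6499 and 6659.

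*Ly6k*, known from male germ cells, was dim in both channels. Its log2 intensities were 7.59 and 7.49 in the control pool and 7.43 and 7.24 in the depleted replicates. The highest depleted value lay only slightly below the lowest control value. The ratios were -0.16 and -0.25, with a mean of -0.21 ± 0.062 (SD, n = 2), or 86.6% of the control. The spots had intensities of 198.5 and 148 in Cy5 over backgrounds of 62.5 and 59.

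**Figure D2:**
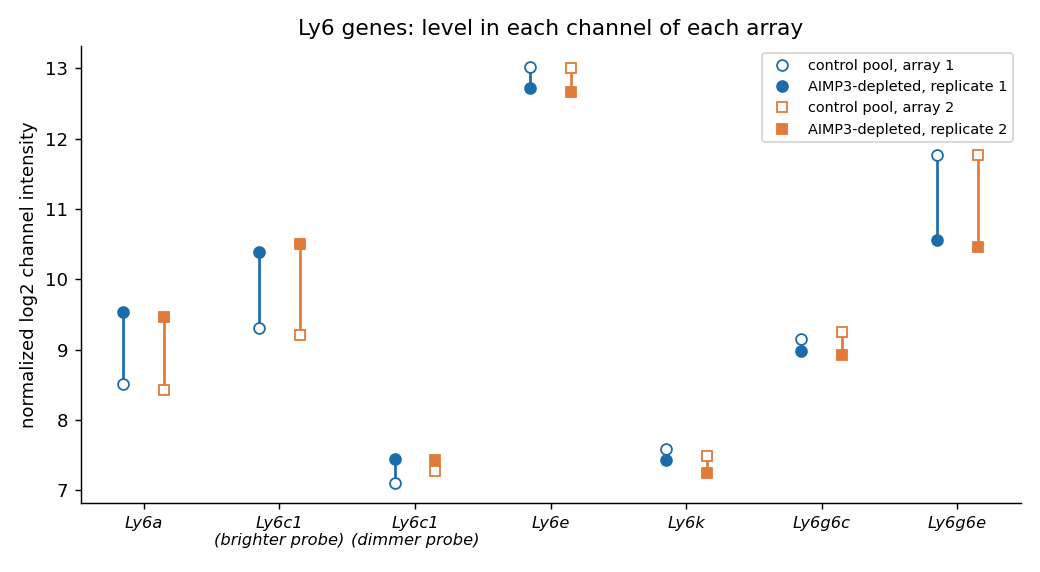
Normalized log2 intensity (vertical axis) of each Ly6 probe in each channel, with open symbols for the control pool, filled symbols for AIMP3-depleted cells, and circles and squares for the arrays of replicates 1 and 2. Levels are comparable within a probe and not between probes; the filled symbols lie above the open ones for *Ly6a* and *Ly6c1*, and below them for the other 4 genes, by 1.26 at *Ly6g6e*.

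Among the 6 genes, 2 had ratios past 1.5-fold upwards and 1 downwards, and 3 lay between. Over all genes tested, 5.52% were raised and 0.791% lowered past the threshold, 6.32% in all. Since the members were chosen on this comparison, nothing is read from their count. The ratios of the members spanned -1.26 to 1.18, with a median of -0.23, and the median over all genes was 0.015. The sign was the same on both arrays for all 7 probes, and the median SD between the arrays over all genes was 0.048.

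**Figure D3:**
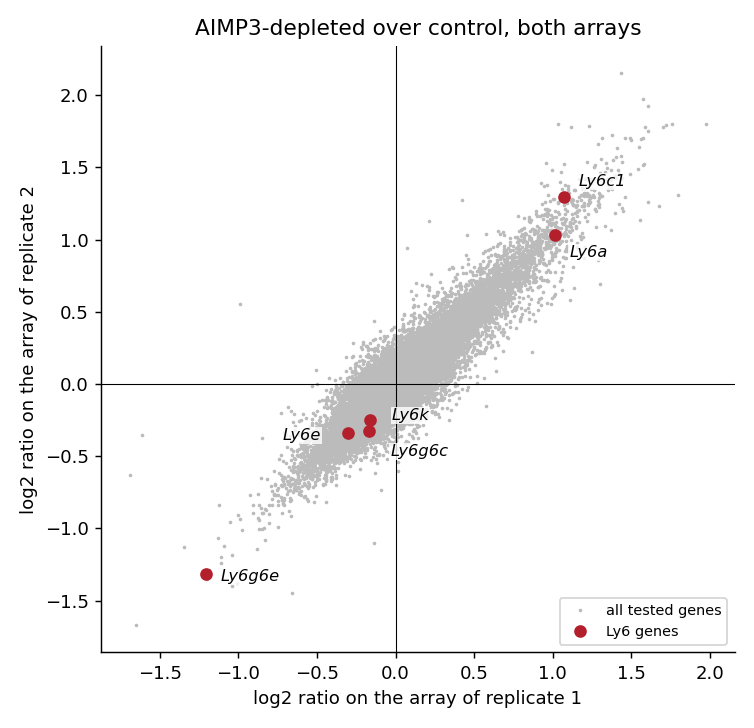
Log2 ratio of AIMP3-depleted over control on the array of replicate 1 (horizontal) and of replicate 2 (vertical), with grey points for all 24022 tested genes and red points for the 6 Ly6 genes. *Ly6a* and *Ly6c1* lie at the upper right, *Ly6g6e* at the lower left, and *Ly6e*, *Ly6g6c* and *Ly6k* between -0.16 and -0.34 on both axes.

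The members lie in 2 groups in the RefSeq gene table, and the genes between and around them were examined to see which neighbours differed. Around *Ly6g6e*, the adjoining *Ly6g6d*, whose record in the table covers that of *Ly6g6e*, had log2 ratios of -0.57 and -0.53. Its mean of -0.55 ± 0.028 (SD, n = 2; limma, adjusted p = 0.000214) was short of the fold threshold, which it passed when signals as processed by the scanner software were taken (-0.87) and in the authors' deposited table (-0.83). Whether the overlap of these gene records affects either value was not tested.

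*Mpig6b*, a receptor of megakaryocytes and platelets that lies on the other side of *Ly6g6c*, had ratios of -0.43 and -0.60. Its mean of -0.51 (limma, adjusted p = 0.000584) also missed the threshold, which it passed with the processed signals (-1.05) and in the deposited table (-1.01). Farther out, *Clic1*, which encodes an intracellular chloride channel protein, rose, with 0.76 and 0.78 on the arrays (mean 0.77, adjusted p = 7.01e-05 by limma). *Ddah2* (-0.014), *Abhd16a* (-0.11), *Ly6g5b* (0.17) and *Csnk2b* (0.0044) missed the threshold. *Ly6g6f*, *Ly6g5c* and *G6bos* were too dim to be tested.

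In the other group, *Ly6i* lies between *Ly6e* and *Ly6a* in the table and had ratios of -0.017 and -0.0067, with a mean of -0.012 (adjusted p = 0.833 by limma). It thus lay near 0 between a lower and a higher relative, although its spot was dim, with a Cy5 intensity of 161 and 146 over backgrounds of 72 and 60. Near *Ly6k*, *Lynx1*, whose product acts on nicotinic acetylcholine receptors, had 0.60 and 0.47 (mean 0.53, adjusted p = 0.000373 by limma). This missed the threshold but passed it with the processed signals (0.61), the deposited table (0.65) and median centring (0.67). A long non-coding transcript, *Gm28068*, covers *Ly6a* in the table and was matched by no probe.

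Within 5 genes on either side of a member the table held 33 other genes, of which 19 were on the array and 11 were tested. Of the 11, 1 rose (*Clic1*) and 0 fell past the threshold by limma, where 5.52% of all genes tested rose and 0.791% fell. *Ly6g6d*, *Mpig6b* and *Lynx1* had an adjusted p under 0.05 by limma without passing 1.5-fold. The median over the 11 was 0.0044. With the processed signals and with the deposited table the count of changed neighbours was 4.

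**Figure D4:**
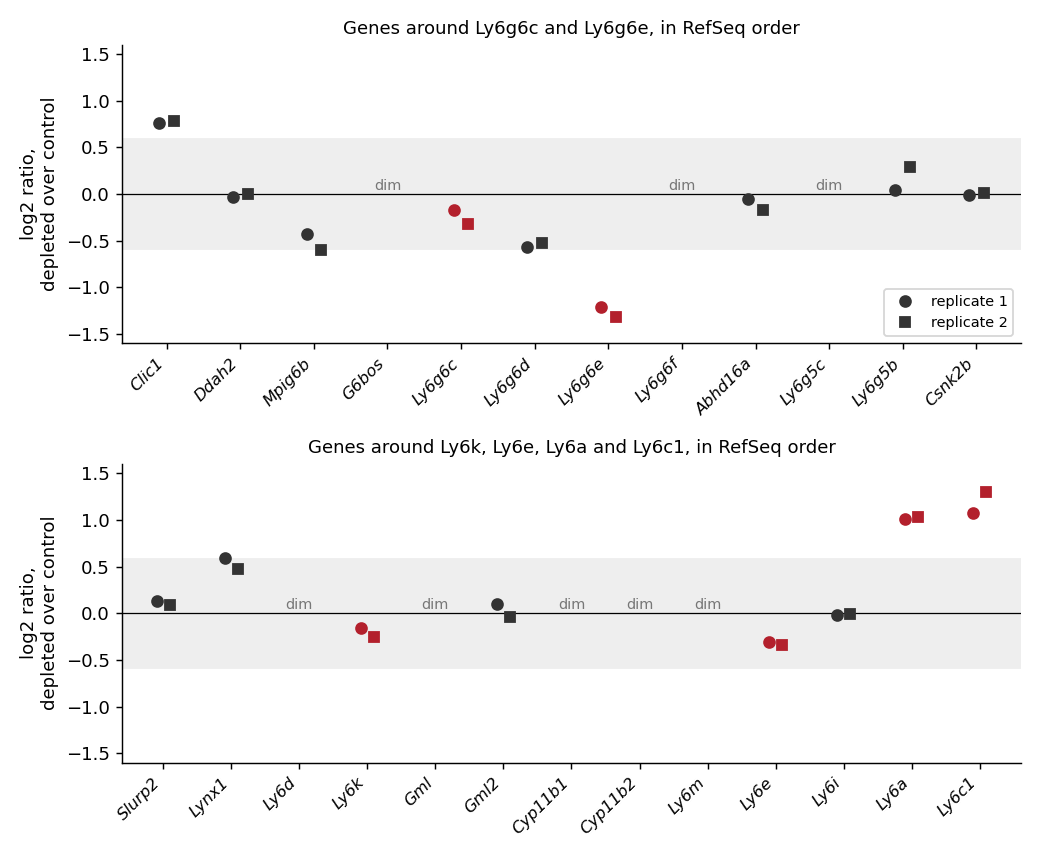
Log2 ratio of AIMP3-depleted over control (vertical axis) of the genes next to the Ly6 genes, in their order in the RefSeq table and not to scale, with circles for replicate 1, squares for replicate 2, red for the 6 Ly6 genes and black for other genes. "dim" marks genes that were not tested, genes with no probe are left out, and the grey band covers ratios under 1.5-fold. *Ly6g6d*, next to *Ly6g6e*, and *Mpig6b*, which lies farther off, are at the lower edge of the band.

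Of the other genes of the Ly6 and uPAR family, 2 rose and none fell (0 genes by limma). The list held 39 genes, of which 34 were on the array, 20 were tested and 14 were too dim. Among the 20, 11 had a positive and 9 a negative ratio, with a median of 0.023. The threshold was not passed by 18, and 6.32% of all genes tested passed it. The range ran from -0.55 for *Ly6g6d* to 1.14 for *Slurp1*.

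*Plaur*, which encodes the receptor of the protease urokinase, had log2 intensities of 12.47 and 12.42 in the control pool and 13.39 and 13.45 in the depleted replicates. Both depleted values lay above both values of the pool. The gene was 1.97-fold higher (0.98 ± 0.078 on the log2 scale, SD, n = 2, adjusted p = 5.27e-05 by limma). *Slurp1*, a secreted member known from skin, had 7.11 and 6.98 in the control pool and 8.11 and 8.26 in the depleted replicates. Its ratio was 1.14 ± 0.20 on the log2 scale (SD, n = 2), but its control signal was well above background on only 1 of 2 arrays. On the other array *Slurp1* entered the test through the depleted channel alone, so no p-value is given for it.

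The ratio of *Slurp1* was 2.65 with the processed signals, 1.39 without background subtraction and 1.20 with median centring. After *Slurp1* and *Plaur*, the highest ratio was that of *Lynx1*. After *Ly6g6d*, the lowest were those of *Lypd3* (-0.28, adjusted p = 0.00304 by limma) and *Ly6h* (-0.23, adjusted p = 0.00541 by limma). *Tex101*, whose product pairs with that of *Ly6k* in male germ cells, had 0.036. *Cd59a* and *Cd59b*, which encode inhibitors of complement, had -0.19 and -0.062.

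Genes for the enzymes that build and attach the GPI anchor were examined next. Of 30 genes, all were on the array and 27 were tested, with a median of -0.025. Of these, 1 rose and 0 fell past the threshold by limma, where 6.32% of all genes tested changed. A positive ratio was found for 13 and a negative one for 14. *Pigm*, a mannosyltransferase of the pathway, rose with 0.64 and 0.72 (mean 0.68, adjusted p = 0.000125 by limma), and its dimmer probe, which was not tested, gave 0.097. The lowest ratio was that of *Dpm3* (-0.39, adjusted p = 0.000813 by limma), part of the enzyme that makes the mannose donor.

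*Ly6a*, *Ly6c1* and *Ly6e* are known to respond to interferon, so other genes of that response were examined. Of 24 genes, 22 were on the array and 17 were tested, with a median of -0.087. Past the threshold, 1 rose and 2 fell by limma, where 5.52% of all genes tested rose and 0.791% fell. *Xaf1*, a pro-apoptotic gene, rose, with a log2 ratio of 1.22 ± 0.18 over the 2 arrays (mean ± SD). Limma gave it an adjusted p of 6.59e-05. A dimmer probe of *Xaf1* gave 0.45. The control signal of this dimmer probe was not well above background on either array, so the size of that ratio is uncertain. *Bst2*, which encodes the antiviral surface protein tetherin, fell by 0.90 on the log2 scale (adjusted p = 5.25e-05 by limma), and *Psmb8*, a subunit of the immunoproteasome, fell by 0.68 (adjusted p = 0.000163 by limma). The ratio of *Psmb8* was -1.11 with the processed signals and -1.07 in the deposited table.

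Several classic genes of the interferon response were near 0 or dim. *Isg15* had a ratio of 0.083 and *Ifit2* of 0.10, and *Ifit1*, *Ifit3*, *Irf7* and *Rsad2* were not well above background in any channel. *Ifitm1* (-0.45) and *Gbp3* (0.47) missed the threshold, which *Gbp3* passed with the processed signals (0.67) and in the deposited table (0.71).

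*Ly6a* is also a marker of fibroblasts, and mouse embryonic fibroblasts served as feeder layers in general culture per the labels. The methods state that cells were in medium conditioned by such fibroblasts when drugs were given. Past the threshold, 5.52% of all genes tested rose and 0.791% fell. Of 12 fibroblast markers, 11 were tested and 8 rose, with a median log2 ratio of 0.81. Their summed log2 level was 14.36 and 14.41 in the control pool and 15.23 and 15.25 in the depleted replicates. Such a sum is weighted towards the brightest probe, which for fibroblasts was that of *Col1a1*, with 32.0% and 31.4% of the control sum on the arrays. Those that rose included the collagen genes *Col1a1* (1.06) and *Col1a2* (1.04), *Fbn1* (1.00), which encodes fibrillin, and *Pdgfra* (0.97), a growth factor receptor. *Dcn* (0.49), *Thy1* (0.17) and *Col6a2* (0.081) missed the threshold, and *Lum* was not well above background in any channel. Of 8 endoderm markers, 8 rose, from *Lamb1* (0.68) to *Sox17* (1.44), with a median of 1.16 and a summed level of 15.67 and 15.70 in the control pool and 16.49 and 16.46 in the depleted replicates. *Lamb1* alone made up 81.6% and 82.5% of that control sum. The part of both lists in the values of *Ly6a* and *Ly6c1* was not tested. In RNA from whole cultures, more cells of a type and more RNA per cell cannot be told apart.

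Endothelial and blood cells also carry Ly6 antigens. Of 8 endothelial markers, 7 were tested, and 0 rose and 1 fell past the threshold by limma (*Cldn5*, -0.81). Over all genes tested, 5.52% rose and 0.791% fell past it. The endothelial markers had a median of -0.055. Their summed log2 level was 12.99 and 13.04 in the control pool and 12.87 and 12.86 in the depleted replicates. Of the 7, 3 had a positive ratio, *Tie1* (0.42), *Tek* (0.35) and *Cdh5* (0.31), and 4 a negative one, and none of the 3 passed the threshold. *Kdr* made up 62.9% and 65.0% of the control sum. The probes of *Kdr*, a receptor of vascular growth factor, disagreed, with -0.15 for the brighter probe that stood for the gene and 1.06 (2.08-fold) for a dimmer one. *Pecam1* had -0.055, and *Emcn* was not well above background. Of 8 blood markers, 6 were tested and 2 rose (*Lyz2*, 0.89, and *Tyrobp*, 0.60), with a median of 0.37 and a summed level of 14.58 and 14.59 in the control pool and 14.90 and 14.86 in the depleted replicates. *Itgam* made up 90.1% and 89.8% of that control sum. A dimmer probe of *Itgam* gave 0.88, against 0.27 for the one that stood for the gene. *Ptprc*, the defining antigen of white blood cells, was not well above background in any channel. Of the 10 mESC markers, 0 rose and 2 fell (*Fgf4*, -0.87, and *Tdgf1*, -0.59), with a median of -0.34 and a summed level of 18.31 and 18.29 in the control pool and 18.34 and 18.29 in the depleted replicates. Of the 10, 7 had a negative ratio and 3 a positive one, and *Dppa5a*, at 0.50 without passing the threshold, made up 41.8% and 42.0% of that control sum.

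The ratios of the members depended on the normalization in size but not in sign. Over the background corrections, dye normalizations, filters, probe rules, the deposited table and each replicate alone, *Ly6g6e* ranged from -1.40 to -1.05, *Ly6a* from 1.01 to 1.24 and *Ly6c1* from 0.71 to 1.37. In the same alternatives *Ly6e* ranged from -0.34 to -0.078, *Ly6g6c* from -0.37 to -0.083 and *Ly6k* from -0.34 to -0.16. Median centring in place of loess brought *Ly6e* and *Ly6g6c* nearest to 0, and moved the median of all genes to 0.18. Relative to that median they were at -0.26 and -0.26. The share of rises among all changed genes was 87.5% after loess, 71.6% with the processed signals and 97.7% with median centring.

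**Figure D5:**
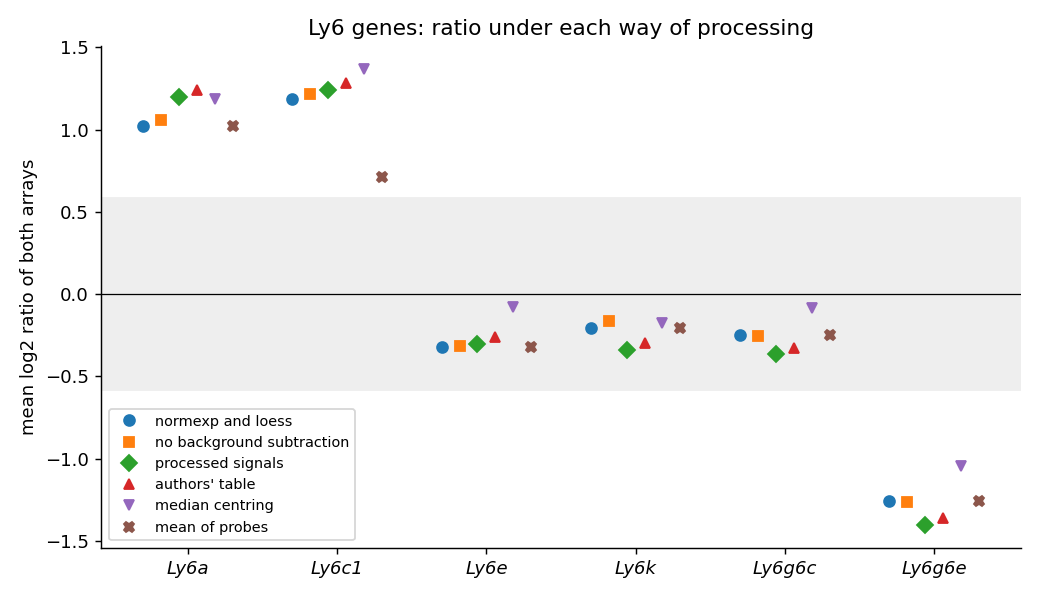
Mean log2 ratio of both arrays (vertical axis) of each Ly6 gene under 6 ways of processing, with symbols and colours as in the key and the grey band for ratios under 1.5-fold. *Ly6a* and *Ly6c1* stay above the band and *Ly6g6e* below it, and the other 3 genes stay inside it below 0.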

How the data were processed

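Gene expression was measured on 2-colour Agilent mouse arrays. The authors deposited, per array, the scanner output of Feature Extraction 11.5.1.1 (per the file headers, array design on mm9) with median intensities of spots and local background before normalization, with processed intensities, and with a log10 ratio of Cy5 over Cy3, which was not analysed. The methods name an earlier version of that software. The authors' deposited values, normalized with GeneSpring per the methods, are log2 ratios. They equalled the log2 ratio of the processed signals plus 0.040 and 0.039, within 0.01, for 99.8% of the 33014 probes compared on each array.

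Background was corrected with limma's normexp (offset 50), and each array was normalized by loess with control spots at weight 0. Spots flagged as outliers were dropped (215 and 227), and spots of a probe were averaged. Channel levels were taken after loess and Aquantile scaling. A probe entered the test if, on both arrays, some channel was well above background, which held for 33012 of 55681. Probes were named through their accession with RefSeq on GRCm38.p6, used for names, gene order and promoter sequences, and the brightest probe stood for a gene. Ratios were tested against 0 with lmFit and eBayes (1 residual and 5.25 prior degrees of freedom), and p-values were adjusted by Benjamini-Hochberg over all 24022 genes. All changed genes had an adjusted p under 0.05 (largest 0.0371). The steps were tested on simulated data, and alternatives to each are given in the closing section.

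The members and gene lists were chosen with earlier results of these data known. Named were the members, *Eef1e1*, family, GPI, interferon-response and neighbouring genes past the threshold, the family genes with the 3 highest and 3 lowest ratios, and the 3 genes nearest to *Ly6g6e*. Some others (*Ly6i*, *Tex101*, *Cd59a*, *Mpig6b* and dim or marker genes) were named after their values were seen. Calculations used limma 3.58.1 in R 4.3.3.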

Additional observations from a re-analysis of the deposited data

How the results depend on the processing

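No paired analysis was possible because the control replicates were pooled, so none could be matched to a depleted replicate by number, and each ratio sets a depleted replicate against the pool on its own array. Background correction, dye normalization, the filter on dim probes, the rule for several probes, the source of the values, the threshold and the replicates were varied in turn. All members and *Eef1e1* kept their direction in every such variation that gives a ratio. Against 1327 raised and 190 lowered genes, the processed signals gave 1942 and 771, median centring 2823 and 65, the authors' deposited values 2130 and 617, and a 2-fold threshold 281 and 17. Of the other family genes, 2 changed, against 5 with the processed signals, 5 with the deposited table, 1 with the stricter filter, which removed *Slurp1*, and 1 at 2-fold. The GPI genes went from 1 to 2 with the processed signals, median centring and the deposited table, and to 0 at 2-fold. The interferon-response genes went from 3 to 5 with the deposited table and to 1 at 2-fold. The neighbouring genes went from 1 to 4 with the processed signals and the deposited table, to 2 with median centring, and to 0 at 2-fold. With either replicate left out, the fold alone gave 2 neighbouring genes. The cause of these differences was not tested, apart from the thresholds and the filter, whose own construction removes genes. Signal over background limits dim probes such as that of *Slurp1*, whose control signal was well above background on 1 of 2 arrays.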
